A study of Homo sapiens with 6 samples.

Results

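The genes described here are those that span 500 kb or more of the genome, in OVCAR8, a cell line from human ovarian cancer. They were selected from the gene table of the series as rows with an end minus start position of at least 500 kb and a mean of at least 50 adjusted reads over all 6 samples. Rows named DPYD or with a symbol beginning with COL, ITG, LAM, ZNF or USP were left out, which removed 1 gene. This left 145 of the 38637 rows, 141 of them protein-coding genes and 4 long noncoding RNAs. The mean level thus helped to choose the genes and is given only as a description, while the difference between treatments was not used. RNA was measured by sequencing of poly(A)-selected RNA from wild-type OVCAR8 cells that received the solvent DMSO (3 samples) or 2 nM pladienolide B (3 samples) for 72 h. The labels do not state whether the 3 samples of a group came from separate cultures, so the p-values measure the spread between these samples, which may be technical. In bulk RNA, fewer cells of a kind and less RNA per cell cannot be told apart.

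Long genes consist almost wholly of introns, and RNA polymerase II needs hours to transcribe them. Introns are removed by the spliceosome, whose U2 snRNP recognizes the branch point upstream of the 3′ splice site with the help of the SF3b complex. Pladienolide B binds SF3B1, the largest SF3b subunit, and interferes with this recognition. Genes of this length are best known from the nervous system, where they encode adhesion molecules, receptors and scaffolds, and several of them lie at common fragile sites, loci that break under replication stress.

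The 145 long genes lay on 22 chromosomes and spanned 501.8 to 2298.8 kb, with a median of 661.8 kb. Their canonical transcripts, from GENCODE, had 3 to 146 exons with a median of 20, where the median of the other genes of that mean was 9. An intron of 100 kb or more was present in 121 of the 144 genes with a canonical transcript. At the limits of the selection, PPFIA2 (501.8 kb) and ERC1 (505.9 kb) lay just inside the span limit and CPQ and DIAPH3 (both 498.3 kb) just outside it. FOXP2 (mean 50.2 adjusted reads) and ADGRB3 (50.6) were just above the level limit, and CADPS2 (47.8) and PPARGC1A (48.2) just below it.

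For 6 long genes that fell or rose strongly, the 3′ end of the longest intron of the canonical transcript is given here, since this is the kind of site at which SF3b acts. Each line gives 50 intron bases and 10 exon bases from the GRCh38 genome, read 5′ to 3′ on the strand of the gene, with the intron's terminal AG in capitals.
RORA (intron 1, chr15:60678677-60678736, minus strand): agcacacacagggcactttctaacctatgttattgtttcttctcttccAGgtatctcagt
SEMA5A (intron 1, chr5:9437843-9437902, minus strand): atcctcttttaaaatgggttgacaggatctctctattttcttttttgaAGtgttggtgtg
GMDS (intron 7, chr6:1742577-1742636, minus strand): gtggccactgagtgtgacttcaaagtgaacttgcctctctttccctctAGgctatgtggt
MAST4 (intron 1, chr5:66759659-66759718, plus strand): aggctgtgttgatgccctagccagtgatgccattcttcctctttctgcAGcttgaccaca
NAV3 (intron 1, chr12:77940269-77940328, plus strand): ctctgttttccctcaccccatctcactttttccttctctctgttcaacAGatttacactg
CREB5 (intron 5, chr7:28718703-28718762, plus strand): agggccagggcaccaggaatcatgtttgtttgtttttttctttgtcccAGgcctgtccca

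These introns were 107.7 kb (SEMA5A) to 550.4 kb (RORA) long. Between 23 and 4 bases before the exon, pyrimidines made up 85% of the bases in 5 of the windows and 90% in that of SEMA5A. Over all introns of a canonical transcript, the pyrimidine content of this stretch had a median of 74.0% in the long genes that fell, 74.6% in those that rose, 74.95% in those that passed no test and 73.9% in the other genes of a mean of 50 or more. The exons of the long genes had a median GC content of 44.6%, against 48.5% in the other genes. These sequence features are descriptions, and their part in the expression differences was not tested.

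The samples held 22621338 to 26130882 reads on genes, and the log2 values of replicates correlated at 0.992 or more. Among the DMSO samples, replicate 2 had the lowest share of reads on long genes. Markers chosen after the values were seen gave 4011 to 4581 adjusted reads for PAX8, a transcription factor of Müllerian epithelium, and 40092 to 53035 for the epithelial keratin KRT8. The keratin KRT7 had a mean of 12528 in DMSO and 8115 in pladienolide B. KRT8 and the keratin KRT18 went the other way, from 41458 to 49896 and from 19126 to 23546. WT1 and MUC16, often found in serous ovarian cancer, were low, with 13.0 to 33.8 and 10.1 to 22.8, and the collagen gene COL1A1, known from stromal cells, had 5602 to 6902. The leukocyte gene PTPRC had at most 2 and the T cell gene CD3E 0 in every sample, while the endothelial gene PECAM1 had 24.1 to 42.1.

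Long genes were more often lower than higher after pladienolide B. A gene is said to have fallen or risen where limma on log2(adjusted reads + 1) gave an adjusted p below 0.05, with Benjamini-Hochberg adjustment over the 16178 genes tested. All 145 long genes passed the filter on low values. By this criterion 61 (42.1%) fell, 20 (13.8%) rose and 64 passed no test. Among all genes tested, 25.2% fell and 22.4% rose. The shares were 28.7% and 25% among the other genes with a mean of 50 or more. The groups did not overlap for 87 long genes (60%), where the share was 55.3% among all genes tested and 60.6% among the other genes with a mean of 50 or more, so the long genes did not stand out by this count. The median log2 fold change of the long genes was -0.12 (quartiles -0.42 and 0.09), and that of the other genes of the same mean -0.01. A negative value was found in 94 long genes (64.8%), against 51.2% of those other genes.

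**Figure D1:**
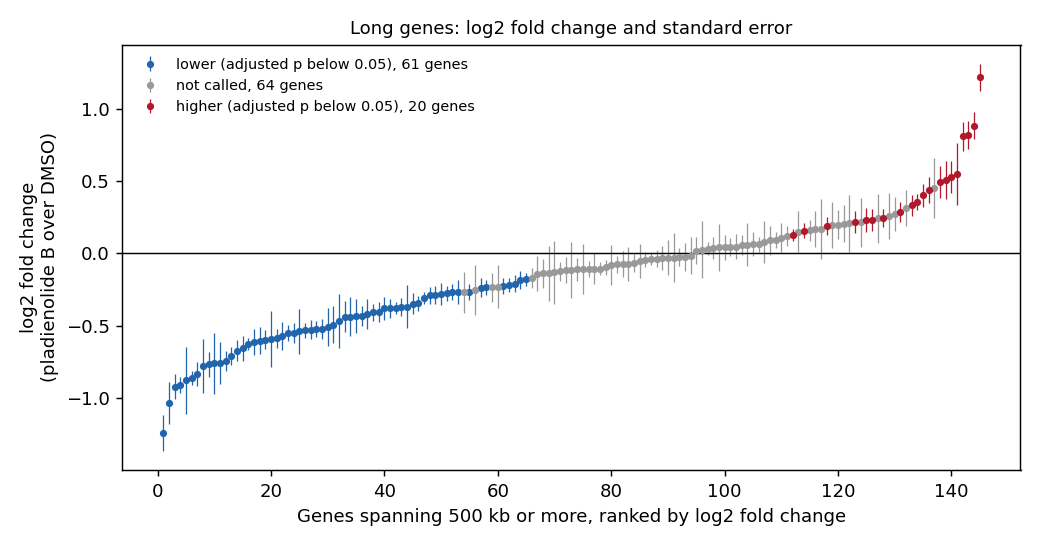
Log2 fold change between pladienolide B and DMSO (y axis) with its standard error for each of the 145 long genes, ranked from lowest to highest (x axis) and coloured by the call. The 61 genes that fell reach from -1.24 to -0.18 and the 20 that rose from 0.13 to 1.22.

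The changes were mostly moderate. Among the 61 long genes that fell, 35 kept 50% to 75% of their DMSO level and 24 kept more than 75%. A fall of at least 2-fold was seen in 2 of the 145 genes (1.38%), RORA and SEMA5A, against 1.98% of all genes tested and 1.41% of the other genes with a mean of 50 or more. A rise of at least 2-fold was seen in 1 gene (0.69%), CREB5, against 1.95% and 0.712%. Changes of this size were thus about as frequent among the long genes as among other genes with a mean of 50 or more.

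The shift of the long genes was seen in each sample. They took 0.561%, 0.537% and 0.565% of all reads in the DMSO samples, and 0.503%, 0.513% and 0.509% in the pladienolide B samples. Every pladienolide B sample was thus below every DMSO sample. Abundant rows weigh most in this share. Among them are ANXA8 (mean 4454 in DMSO and 2371 in pladienolide B) and SNHG14 (4802 and 3108), whose counts are uncertain, as described below. Relative to the DMSO mean, the median long gene lay at 0.02, -0.03 and 0.02 on the log2 scale in the DMSO samples and at -0.14, -0.12 and -0.12 in the pladienolide B samples, while the medians of the other genes lay between -0.01 and 0.01 in all samples. In the 3 pladienolide B samples 76, 76 and 79 long genes were below all DMSO samples, and 41, 40 and 34 were above all of them. The same count was not made for other genes, so these numbers do not set the long genes apart. Without DMSO replicate 2, the median log2 fold change was -0.15, with 63 genes lower and 19 higher.

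The share of genes that fell was larger in the longer span classes, among genes with a mean of at least 50 (the plot of calls by span class). It was 26.9% of 2794 genes under 10 kb, 27.5% of 3808 genes of 10 to 30 kb and 28.7% of 4186 genes of 30 to 100 kb. Beyond this length it was 32.1% of 1826 genes of 100 to 250 kb, 37.9% of 451 genes of 250 to 500 kb, and 42.1% of the long genes. The share that rose was 23%, 26.5%, 27%, 22%, 18.8% and 13.8% in the same order. The median log2 fold change was close to 0 in the 3 shorter classes, -0.04 at 100 to 250 kb, and -0.12 both at 250 to 500 kb and at 500 kb or more. No test between the classes was made. Across 13210 genes of that mean, Pearson's r of the log2 fold change with log10 span was -0.05, and within the 145 long genes it was -0.04. These correlations are over genes of the same 6 libraries, so they describe this data set only. The 17 long genes of 1000 kb or more included 6 that fell and 2 that rose.

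**Figure D2:**
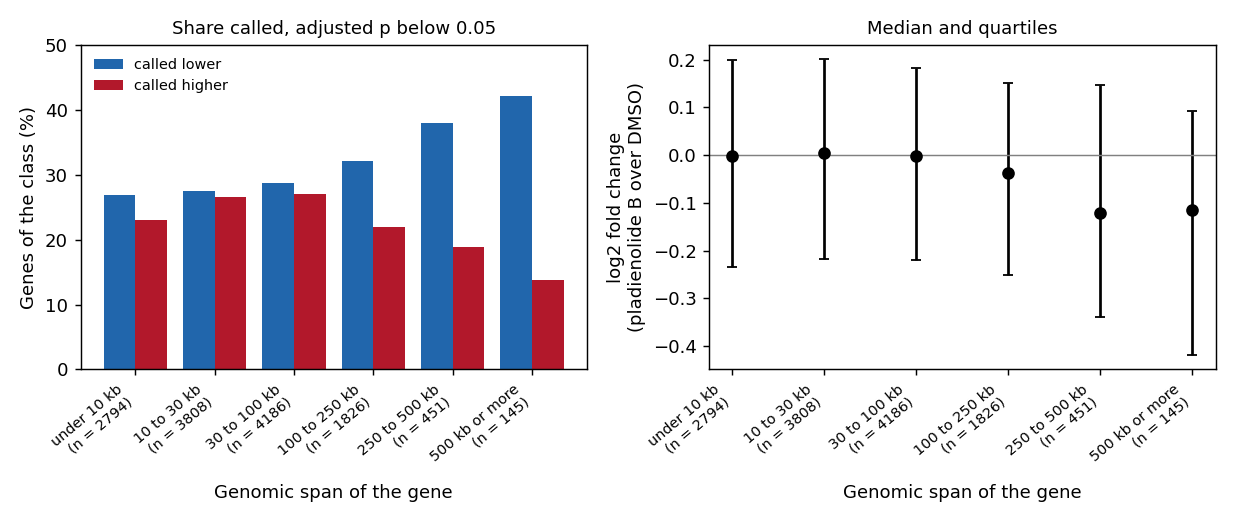
Genes with a mean of at least 50 adjusted reads by genomic span (x axis). Left, the share of each class (%) called lower or higher at an adjusted p below 0.05; right, the median log2 fold change with bars for the quartiles. The share called lower goes from 26.9% under 10 kb to 42.1% at 500 kb or more, and the share called higher is lowest, at 13.8%, in the longest class.

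Long genes also differ from other genes in level and in exon number, so the shares were given within strata of both. At a mean of 50 to 200 adjusted reads, 27.9% of 43 long genes fell and 4.65% rose, where 21.2% and 16.7% of the other genes did. At 200 to 1000 the shares were 44.6% and 21.5% of 65 long genes, against 29% and 23.1%. At 1000 or more, 54.1% of 37 long genes fell and 10.8% rose, against 31.9% and 30.5% of the others. The share that fell was thus above that of the other genes in each stratum of level.

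Genes with more exons fell more often, among the long genes and among the others. Of the 51 long genes with 25 or more exons 52.9% fell and 15.7% rose, and of the 1021 other genes with so many exons 44.3% fell and 19.6% rose. With 16 to 24 exons 42.5% of 40 long genes and 34.4% of the others fell, and with 8 to 15 exons 34.1% of 41 and 28.2%. Among the 12 long genes with 1 to 7 exons 25% fell and 0% rose, where 24.6% and 25.6% of the other genes did. The median log2 fold change was -0.22 in long genes and -0.13 in other genes with 25 or more exons. With 1 to 7 exons it was 0.07 in long genes and 0.01 in other genes. Across 12704 genes Pearson's r of the log2 fold change with exon number was -0.12, and across 144 long genes it was -0.13. The parts of span and exon number in the falls were not separated by a test.

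The length of the longest intron gave another order. Of the 59 long genes whose longest intron was 200 kb or more 32.2% fell, and of the 62 with 100 to 200 kb 46.8%. It was 50% of the 16 with 50 to 100 kb and 71.4% of the 7 with under 50 kb. These 7 include ANXA8, LRRC37A2, SCHIP1 and GSE1, which fell, and POLR1C, which rose. In each of these named rows the canonical transcript covers less than 30% of the row, so this class is mostly not one of simple long genes. The other genes with an intron of 200 kb or more were 43, of which 25.6% fell and 16.3% rose. In the 3 shorter classes 30.3%, 29.3% and 28.8% of the other genes fell. The median level of the long genes also differed, with 305, 591, 660 and 854 adjusted reads from the longest introns to the shortest. The parts of level and intron length were not separated. By length of the mature transcript, 66.7% of the 15 long genes with under 3000 exonic bases fell, against 27.5% of other genes of that length. Of the 31 with 3000 to 6000 bases 41.9% fell, against 29.5%, and of the 45 with 9000 or more 48.9%, against 34.3%. The 53 long genes with 6000 to 9000 exonic bases, the largest of these classes, were close to the other genes: 30.2% fell, against 29.8%, and the median log2 fold changes were 0.02 and -0.01.

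**Figure D3:**
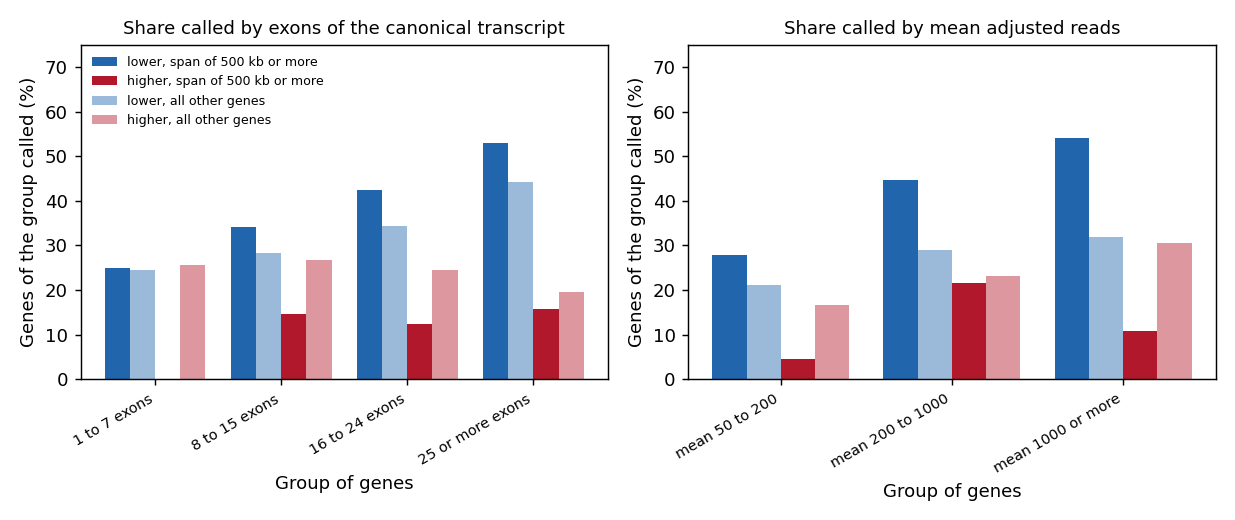
Share of genes (%) called lower and called higher at an adjusted p below 0.05 (y axes) within strata of mean level and of exon number (x axes), for the long genes and the other genes of a mean of at least 50. Long genes are called lower more often than other genes in the strata shown, for example 54.1% against 31.9% at a mean of 1000 or more. The exception is 1 to 7 exons, where the shares are nearly equal (25% of 12 long genes against 24.6%).

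Of all long genes, RORA had the most negative fold change. RORA (chr15:60488284-61229302) encodes a nuclear receptor with targets among the circadian clock genes. It had 333, 272 and 329 adjusted reads in the DMSO samples and 114, 149 and 131 in the pladienolide B samples. Every treated sample was below every control, and the log2 fold change was -1.24 ± 0.12 (SE), with an adjusted p of 4.16e-07 by limma with Benjamini-Hochberg adjustment, which also applies to the adjusted p-values that follow. SEMA5A (chr5:9035030-9546121), a transmembrane semaphorin that guides axons and cell migration, had 262, 253 and 283 adjusted reads in DMSO and 111, 169 and 115 in pladienolide B. The groups were apart although the second treated sample was higher than the others, with a log2 fold change of -1.03 ± 0.14 (SE) (adjusted p = 1.56e-05, limma).

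Enzymes of metabolism were among the falls. They and the families named in the text were grouped after their values had been seen, so the counts of a family are descriptions. GMDS (chr6:1623806-2245605), which makes the first step of GDP-fucose synthesis from GDP-mannose, had 558, 493 and 535 adjusted reads in DMSO and 303, 265 and 268 after treatment. The highest treated sample was far below the lowest control (log2 fold change -0.92 ± 0.09 SE, adjusted p = 2.03e-07, limma). FARS2 (chr6:5261007-5771583), the mitochondrial phenylalanyl-tRNA synthetase, had 676, 744 and 708 in DMSO against 454, 466 and 415. It too did not overlap (log2 fold change -0.67 ± 0.07 SE, adjusted p = 1.06e-06). SUGCT, a mitochondrial CoA transferase of glutarate metabolism, was low and more variable, with 54.1, 73.6 and 93.1 in DMSO and 36.5, 32.2 and 49.1 in pladienolide B, for a log2 difference of -0.88 ± 0.23 (SE) (adjusted p = 0.0049, limma). ADK, the adenosine kinase, was the third most abundant long gene by mean, with 5558, 6405 and 5689 in DMSO and 5037, 5063 and 4871 after treatment. Its groups were apart and 84.8% of the DMSO mean remained, a log2 fold change of -0.23 ± 0.05 (SE) (adjusted p = 0.00091, limma). These 4 were put together after their values were known, so their shared direction is a description. Among all long genes 42.1% fell, and among all genes tested 25.2%. Other long genes that encode enzymes, such as FHIT, CDKAL1 and the sialyltransferase ST6GALNAC3 (0.21 ± 0.20 SE), passed no test.

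The list named RNA processing and genome maintenance held 8 long genes, of which 4 fell and 0 rose, with a median log2 fold change of -0.40. The lists used here were written by hand with earlier results of these data known, so a list's counts are a description. They are read against the 42.1% that fell and the 13.8% that rose among all long genes. Among all genes tested the shares were 25.2% and 22.4%. RBMS3 (chr3:29280860-30010395), an RNA-binding protein that binds AU-rich elements, had 511, 462 and 494 adjusted reads in DMSO and 264, 263 and 296 in pladienolide B. Its groups did not overlap (log2 fold change -0.83 ± 0.09 SE, adjusted p = 5.56e-07, limma). BCAS3, a WD-repeat protein first found as amplified in breast cancer, had 533, 537 and 477 in DMSO against 325, 279 and 305, with every treated sample below every control (-0.77 ± 0.09 SE). CDK14, a cyclin-dependent kinase of Wnt signalling, had 737, 673 and 697 in DMSO against 456, 473 and 510.1 (-0.55 ± 0.07 SE). CEP112, a centrosomal protein, was the fourth gene of the list that fell. BCAS3, CDK14 and CEP112 are not known as factors of RNA processing or genome maintenance, so the count and median of this list do not describe these functions. FHIT, a diadenosine triphosphate hydrolase, CELF2, a splicing regulator, and CDKAL1, a tRNA-modifying enzyme, passed no test, with log2 fold changes of -0.25, 0.06 and -0.07. RAD51B, also on the list, passed no test either (-0.23 ± 0.15 SE).

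Membrane trafficking and protein turnover held 20 long genes, of which 10 fell and 1 rose. LRBA (chr4:150264435-151015727), a BEACH-domain protein that protects CTLA4 from lysosomal breakdown, had 1436, 1476 and 1546 adjusted reads in DMSO and 982, 838 and 916 in pladienolide B. The ranges were far apart (log2 fold change -0.71 ± 0.06 SE, adjusted p = 1.05e-07, limma). TRAPPC9, a subunit of the TRAPP II tethering complex, had 943, 911 and 856 in DMSO against 539, 512 and 568, again without overlap (-0.74 ± 0.07 SE, adjusted p = 1.38e-07). EXOC4, the Sec8 subunit of the exocyst, had 2240.1, 2448 and 2393 in DMSO against 1675, 1580.2 and 1642, a fall to 69.1% of the DMSO mean (-0.53 ± 0.05 SE, adjusted p = 2.1e-07). NBAS, a factor of Golgi-to-ER transport, fell by 0.60 on the log2 scale, the lipid transfer protein VPS13B by 0.34, the GTPase-activating proteins RABGAP1L and TBC1D5 by 0.38 and 0.27, the sorting nexin SNX29 by 0.29, the synaptic scaffold gephyrin (GPHN) by 0.53 and the active zone protein RIMS2 by 0.22. The related genes of LRBA and EXOC4 did not pass the test: NBEA had a log2 fold change of -0.11 ± 0.17 (SE) and EXOC6B one of -0.10 ± 0.05 (SE). MCTP1, a calcium-binding membrane protein with C2 domains, was the 1 gene of this list that rose (0.49 ± 0.11 SE, adjusted p = 0.00176, limma).

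Genes of the cytoskeleton and of cell polarity went in both directions, with 7 of 18 lower and 4 higher. DOCK1 (chr10:126905428-127452517), an exchange factor that activates Rac in migration and engulfment, had 2576, 2596 and 2640.0 adjusted reads in DMSO and 1387, 1433 and 1485 in pladienolide B. The replicates of each group lay close together and the groups far apart (log2 fold change -0.86 ± 0.05 SE, adjusted p = 3.62e-10, limma, the smallest of the long genes). UTRN, which encodes utrophin, had 2857, 2731 and 3009 in DMSO and 1988, 1829 and 2051 in pladienolide B (-0.55 ± 0.05 SE, adjusted p = 2.77e-07). Its close relative dystrophin, from DMD (chrX:31119219-33339460), had 348, 317 and 309 in DMSO against 386, 376 and 379.8, so the groups were apart in the other direction. The log2 fold change of DMD was 0.23 ± 0.08 (SE) (adjusted p = 0.031, limma), and its call was lost when any sample but DMSO replicate 1 was left out and with DESeq2, with a log2 fold change of 0.20 to 0.28 over the alternatives. The nuclear envelope protein SYNE1, which has 146 exons, kept 69.5% of its DMSO mean, the polarity protein PARD3 82.6%, the formin DIAPH2 86.5% and the focal adhesion protein LPP 85.4%, and all 4 fell.

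The neuron navigators, which bind the tips of growing microtubules, were split. NAV3 (chr12:77571856-78213010) had 533, 588 and 597 adjusted reads in DMSO and 1118, 1203 and 876 in pladienolide B, with every treated sample above every control (log2 fold change 0.88 ± 0.09 SE, adjusted p = 6.88e-07, limma). NAV2 had 1916, 1637 and 1900.2 in DMSO against 1596, 1716 and 1485. Its groups overlapped, and its log2 fold change of -0.18 ± 0.07 (SE) (adjusted p = 0.0282) lost the call without DMSO replicate 1, DMSO replicate 3, pladienolide B replicate 1 or pladienolide B replicate 3, with upper-quartile scaling and in limma without the variance trend. DLC1, a GTPase-activating protein, rose: it had 5426, 4895 and 5549.6 in DMSO and 5763, 5689.9 and 6221 in pladienolide B. The groups were apart by a small margin, with a log2 fold change of 0.16 ± 0.05 (SE) (adjusted p = 0.0175, limma), and the call was lost without pladienolide B replicate 3 (adjusted p = 0.108) and in limma without the variance trend. STARD13, a relative of DLC1, DOCK3, KALRN and ARHGAP24 passed no test, with log2 fold changes of -0.12, -0.12, -0.07 and 0.06.

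Adhesion and axon guidance, the largest list, held 22 long genes, of which 9 fell and 4 rose. PTPRM (chr18:7567316-8406859), a receptor-type tyrosine phosphatase that binds itself between cells, had 3784, 3703 and 3851 adjusted reads in DMSO and 2992, 2863 and 2873 in pladienolide B. The groups were apart (log2 fold change -0.38 ± 0.04 SE, adjusted p = 1.61e-06, limma). The longest long gene, PTPRD (chr9:8314246-10613002), which spans 2298.8 kb and encodes a phosphatase that organizes synapses, had 637, 589 and 659 in DMSO against 462, 513 and 505 (-0.35 ± 0.07 SE, adjusted p = 0.000885). PTPRG, of the same family, went the other way, with 876, 862 and 887 in DMSO and 1137, 1089 and 1127 in pladienolide B and no overlap (0.35 ± 0.05 SE, adjusted p = 5.1e-05, limma). PTPRK had a log2 fold change of 0.21 ± 0.08 (SE) with groups that overlapped, and its call was lost without DMSO replicate 1, pladienolide B replicate 1 or pladienolide B replicate 2, and in limma without the variance trend. PTPRN2 passed no test (-0.04 ± 0.05 SE). Of these 5 phosphatases 2 fell and 2 rose.

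NEGR1 (chr1:71395943-72282539), a membrane-anchored adhesion molecule of the immunoglobulin family, had 355, 348 and 326 adjusted reads in DMSO and 229, 219 and 224 in pladienolide B (log2 fold change -0.61 ± 0.09 SE, adjusted p = 3.3e-05, limma). The teneurin TENM2, a large adhesion receptor that binds latrophilins, had 84.6, 107 and 81.1 in DMSO against 37.8, 63.8 and 61.1, with treated samples all below the controls and a wide spread (-0.76 ± 0.21 SE, adjusted p = 0.00659). Its relative TENM3, which spans 1355.4 kb, had 1452, 1323 and 1413 in DMSO against 1304, 1301 and 1279. Its groups did not overlap, yet its log2 fold change of -0.11 ± 0.05 (SE) passed the test in 1 of 14 alternative fits, without DMSO replicate 2 (adjusted p = 0.0203, against 0.105 with all samples). The growth factor NRG1, the adhesion molecule SDK1, the catenin CTNND2 and the secreted guidance cue SLIT3 fell as well, by 0.40, 0.42, 0.43 and 0.44 on the log2 scale. SLIT3 lost its call without DMSO replicate 1, DMSO replicate 3 or pladienolide B replicate 2, and in limma without the variance trend, while its receptor ROBO1 had 3197, 3107 and 3284 in DMSO against 3099, 3237 and 3003, overlapped and passed no test (-0.04 ± 0.04 SE). Both cadherins rose. CDH4, R-cadherin, had 419.6, 444 and 464 in DMSO and 575, 547 and 632 in pladienolide B (0.40 ± 0.08 SE, adjusted p = 0.000407, limma), and CDH13, the membrane-anchored T-cadherin, 402, 393 and 391 in DMSO against 495, 454 and 446 (0.23 ± 0.08 SE, adjusted p = 0.0199), a call that was lost without DMSO replicate 3 or pladienolide B replicate 1.

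**Figure D4:**
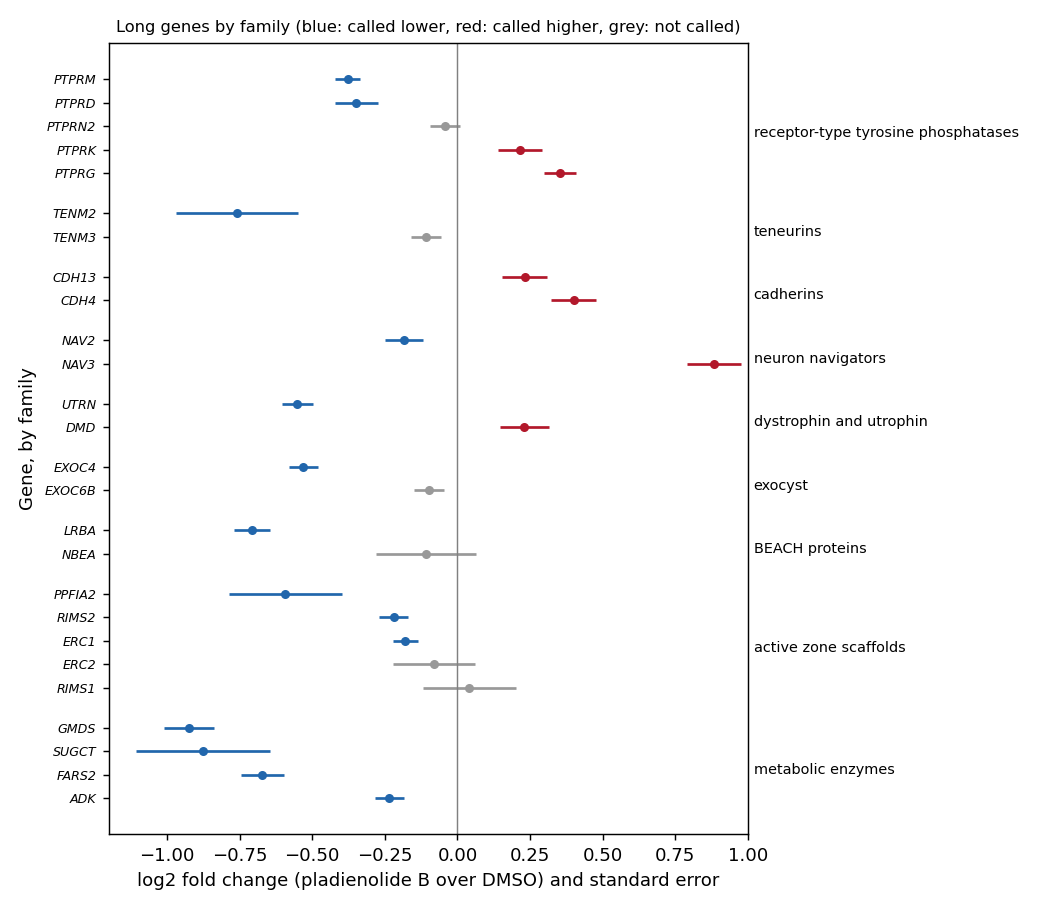
Log2 fold change between pladienolide B and DMSO (x axis) with its standard error for the long genes of 9 families (y axis), coloured by the call. The 4 metabolic enzymes, grouped after their values were seen, fell, both cadherins rose, and the receptor-type tyrosine phosphatases, the navigators and the pair of dystrophin and utrophin hold genes of both directions.

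Of the 3 long genes grouped here under cilium and centrosome, CEP112 fell by 0.76, SPAG16 by 0.51 and BBS9, a subunit of the BBSome, by 0.44 on the log2 scale. They were put together after their values were seen, and other long genes with such a role may be missing, so their shared direction is a description. Among all long genes 42.1% fell, and among all genes tested 25.2%. Of the 5 scaffolds of the presynaptic active zone, PPFIA2, RIMS2 and ERC1 fell, by 0.59, 0.22 and 0.18, and RIMS1 and ERC2 passed no test (0.04 and -0.08). PPFIA2 lost its call without DMSO replicate 2 or pladienolide B replicate 3.

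Kinases, phosphodiesterases, channels and other signalling genes numbered 16, of which 6 fell and 2 rose. Among the 6 were the tRNA synthetase FARS2, the postsynaptic scaffold SHANK2 and the lipid flippase ATP8A2, which are not signalling enzymes. INPP4B (chr4:142023160-142846535), a phosphatase that removes the 4-phosphate of PI(3,4)P2, had 5780.1, 6009.7 and 5917 adjusted reads in DMSO and 4552, 4883 and 4867 in pladienolide B, without overlap (log2 fold change -0.31 ± 0.04 SE, adjusted p = 1.42e-05, limma). MAST4 (chr5:66596354-67169595), a microtubule-associated serine/threonine kinase, had 489.8, 397 and 520.5 in DMSO against 834, 929.7 and 719, with every treated sample above every control (0.82 ± 0.10 SE, adjusted p = 4.19e-06). Protein kinase C alpha (PRKCA) rose by 0.24 ± 0.06 (SE), a call that was lost in limma without the variance trend, and its relative PRKCE passed no test (-0.05 ± 0.12 SE). Outside this list, the Hippo pathway kinase STK3 fell by 0.41.

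The cyclic nucleotide phosphodiesterase PDE10A had 1232, 1188 and 1147 in DMSO against 969, 1037 and 912 and fell (-0.29 ± 0.06 SE, adjusted p = 0.000737, limma). PDE4D, which degrades cyclic AMP and spans 1555.3 kb, had 457, 271 and 433 in DMSO and 258, 316 and 306 in pladienolide B. The second DMSO sample lay within the range of the treated ones, and the log2 fold change of -0.37 ± 0.15 (SE) just passed the test (adjusted p = 0.0499, limma). This call was lost in 11 of 14 alternative fits, among them those without any 1 sample other than DMSO replicate 2. PDE1C and the cyclic GMP-dependent kinase PRKG1 passed no test (-0.02 and 0.17).

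Transcription and chromatin genes numbered 11, of which 3 fell and 2 rose. CREB5, not on this list but a transcription factor of the CREB family, had the most positive fold change of the long genes. CREB5 (chr7:28299321-28825894) had 316, 260.2 and 339.8 adjusted reads in DMSO and 726, 722 and 674 in pladienolide B, a 2.32-fold higher mean, and its groups were far apart (log2 fold change 1.22 ± 0.09 SE, adjusted p = 1.57e-08, limma). AFF3 (chr2:99545419-100142590), a nuclear protein related to the scaffold of the super elongation complex, had 336, 329 and 373 in DMSO against 623, 704 and 506. The treated samples varied more than the controls and were all above them (0.81 ± 0.10 SE, adjusted p = 5.76e-06). The forkhead factor FOXP1 had 715, 624 and 674 in DMSO against 521, 541 and 594 and fell (-0.28 ± 0.07 SE, adjusted p = 0.00513). The methyltransferase SMYD3 fell by 0.24, and the histone deacetylase HDAC9 had a log2 fold change of 0.19 ± 0.06 (SE), a rise that was lost without pladienolide B replicate 2 and in limma without the variance trend. FOXP2, ZFHX3, ZBTB20, SUPT3H, CAMTA1 and HIVEP3 passed no test.

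Among the other rises, KIAA1217 had 259, 192 and 244 adjusted reads in DMSO and 317, 357 and 322 in pladienolide B (log2 fold change 0.53 ± 0.11 SE, adjusted p = 0.000974, limma). FRMD4A, a FERM-domain scaffold of cell polarity, had 129.7, 126 and 162 in DMSO against 179.5, 192 and 222 (0.51 ± 0.13 SE), and PHACTR1, a regulator of actin and of protein phosphatase 1, 399.5, 378 and 343 in DMSO against 496, 569 and 459 (0.44 ± 0.09 SE). In all 3 every treated sample was above every control. Among the other falls, CCDC171, a coiled-coil protein, had 68.7, 67.5 and 73.8 in DMSO against 42.7, 39.5 and 39.1 (-0.78 ± 0.19 SE, adjusted p = 0.00251, limma).

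**Figure D5:**
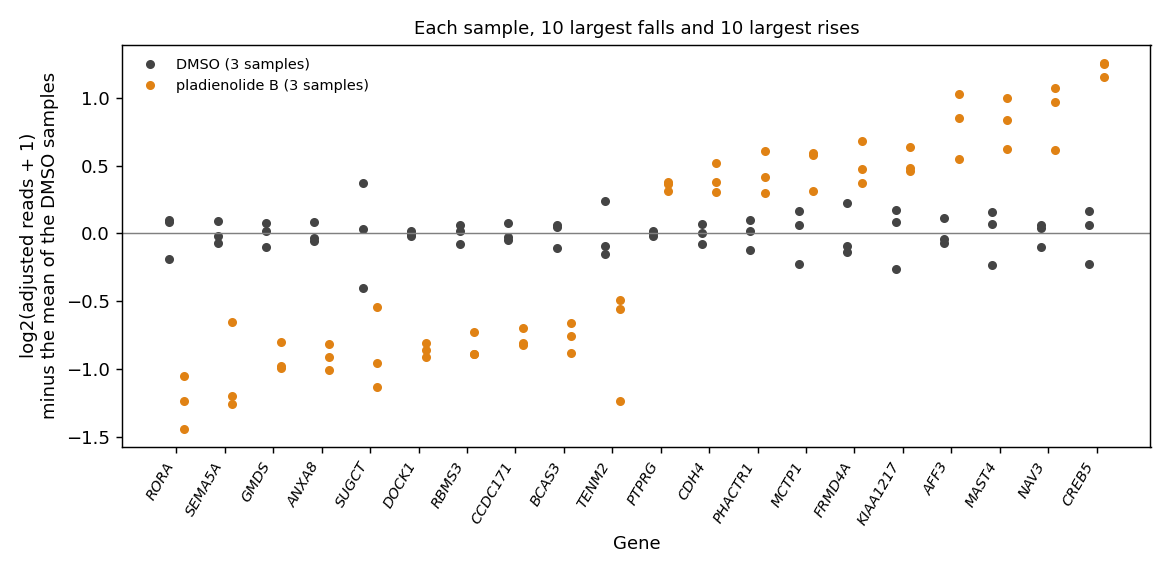
Log2(adjusted reads + 1) of each sample minus the mean of the DMSO samples (y axis) for the 10 long genes with the largest falls and the 10 with the largest rises (x axis) among those that passed the test with groups that do not overlap. Each point is 1 sample. RORA and SEMA5A lie lowest, at -1.24 and -1.03 on average, and CREB5 highest, at 1.22.

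At common fragile sites lay 16 long genes, of which 8 fell and 4 rose, with a median log2 fold change of -0.23. The genes RORA, PTPRG, DMD, PDE4D and others described above are part of this list. GPHN, the one with the second smallest p, had 663, 696 and 652 adjusted reads in DMSO and 470.0, 459 and 465 in pladienolide B, without overlap (-0.53 ± 0.07 SE, adjusted p = 6.74e-06, limma). FHIT (chr3:59747277-61251452), at the fragile site FRA3B and 1504.2 kb long, had 100.1, 82.7 and 74.4 in DMSO against 62.7, 77.8 and 74.2. Its groups overlapped, and it passed no test (-0.25 ± 0.17 SE, adjusted p = 0.245).

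Per kilobase of exon, the highest DMSO levels among the long genes were those of ADK (2954 adjusted reads per kb), ANXA8 (2205) and PALM2AKAP2 (1598), and the lowest that of AKAP6 (5.30). The median was 66.6, and it was 114 in those that fell, 66.3 in those that rose and 43.9 in those that passed no test. The calls rest on the same DMSO values and come more easily where the error is small, so this order is only a description. The median standard error of the log2 fold change was 0.069 in those that fell, 0.08 in those that rose and 0.102 in those that passed no test. PALM2AKAP2 (chr9:109640787-110172512), which encodes an anchor of protein kinase A, had the highest mean, with 12349.7, 11860.3 and 12321 adjusted reads in DMSO and 13349.8, 13744 and 12806 in pladienolide B. All treated samples were above all controls, but by little (log2 fold change 0.13 ± 0.04 SE, adjusted p = 0.0159, limma), and the call was lost without pladienolide B replicate 1 (adjusted p = 0.0619) or replicate 2 (adjusted p = 0.0805), and in limma without the variance trend.

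Some long rows are not simple long transcription units. For 8 genes the canonical transcript covered less than 30% of the row: ANXA8, LRRC37A2, SCHIP1, NRG1, GSE1, POLR1C, ADGRL2 and ZFHX3. POLR1C, which encodes a subunit of RNA polymerases I and III, spans 944.3 kb in the table, while its canonical transcript spans 4.4 kb and 18 other genes of a mean of 10 or more overlap the row. ANXA8, a phospholipid-binding annexin, and LRRC37A2 lie in duplicated regions with near-identical copies, so their read counts are uncertain. ANXA8 had 4289.7, 4726 and 4347 adjusted reads in DMSO and 2368, 2528 and 2216 in pladienolide B, and its log2 fold change was -0.91 ± 0.05 (SE) (adjusted p = 8.07e-10, limma). SCHIP1 shares exons with the read-through row IQCJ-SCHIP1, and the values of these rows are therefore not independent. Both fell, by 0.37 and 0.38.

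The 4 noncoding rows also went in both directions. SNHG14 (chr15:24823608-25419462), the host of the small nucleolar RNAs of the imprinted Prader-Willi region, had 4832, 4835 and 4737 adjusted reads in DMSO and 3025, 3069 and 3229.9 in pladienolide B, without overlap (log2 fold change -0.63 ± 0.04 SE, adjusted p = 4.16e-09, limma). It overlaps 7 genes of a mean of 10 or more on its own strand and 1 on the other, and counting by strand is not stated, so its reads cannot be told apart from theirs. TSNAX-DISC1, a read-through row that shares exons with TSNAX and DISC1, rose (0.29 ± 0.07 SE). OBI1-AS1 and MIR924HG passed no test (0.20 and 0.45).

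Among the long genes 14 overlapped a gene of a mean of 10 or more on the same strand, 33 did so on the opposite strand alone and 98 did not. Of these 98 genes 43 fell and 11 rose, with a median log2 fold change of -0.13. Of the 110 genes whose canonical transcript itself spans 500 kb or more 47 fell and 12 rose. Among all long genes 42.1% fell and 13.8% rose, and among all genes tested 25.2% and 22.4%. Both subsets were thus close to the long genes as a whole.

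Factors of transcription elongation and of long-gene expression, which are not long genes themselves, were described from a list of 56 genes, 55 of them tested. The list was also written with earlier results known. Of its genes 18 (32.7%) rose and 11 (20%) fell, with a median log2 fold change of 0.06. Among all genes tested 22.4% rose and 25.2% fell. The median mean of the list was 2294 adjusted reads. Among the other genes with a mean of 1000 or more, 30.5% rose and 31.9% fell, so the share of rises was close to that level's. The DNA topoisomerases, which relieve the supercoils ahead of the polymerase, did not move together. TOP1 rose from 4430.0 ± 172 to 5984 ± 266 adjusted reads (mean ± SD, n = 3 each; log2 fold change 0.43 ± 0.05, SE), and TOP2A, the form of dividing cells, fell from 13360.0 ± 905 to 8344 ± 612 (-0.68 ± 0.05, SE). TOP2B passed no test, with 4639 ± 97.4 and 4684 ± 149 (0.01 ± 0.04, SE). The RNA-binding protein TARDBP fell by 0.45 on the log2 scale. SUPT5H, a subunit of the elongation factor DSIF, rose by 0.39 ± 0.04 (SE), and CPSF1, of the cleavage and polyadenylation complex, fell by 0.63 on the log2 scale. The part of these factors in the values of the long genes was not tested.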

How the data were processed

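RNA was sequenced from poly(A)-selected RNA of OVCAR8 cells, 3 samples with DMSO and 3 with pladienolide B, grouped by their titles. According to the study's methods, hisat2 aligned the trimmed reads to hg38 and DESeq2 compared the groups. The submitters' processing notes name HISAT2, HTSeq 0.12.4, DESeq2 and hg19. The positions in the table are those of GRCh38: 60.4% of the 35872 symbols found in RefSeq's GRCh38.p14 table have exactly the same start and end. Whether reads were counted by strand is not given in the sources used here.

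For each sample the authors deposited a signal per gene, which is read counts adjusted to a common library size, called adjusted reads here. It matches the quantile adjustment of edgeR at a dispersion of 0.0027. Whole reads were recovered by inverting this adjustment and rounding. Adjusting them again gave the deposited value, within 0.01, for 100% of the 148143 values above 0. The log2 fold change, p-value and q-value columns that the authors deposited hold their own comparison and were not used.

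Genes were tested with limma 3.58.1 (R 4.3.3) with a variance trend on log2(adjusted reads + 1), two-sided, with Benjamini-Hochberg adjustment over the 16178 genes kept by filterByExpr of edgeR 4.0.16 (minimum 10, total 15, in at least 3 samples). The pseudocount of 1 understates fold changes of low genes. The design had left the choice between limma and a count test to the unit of the table. Alternatives were edgeR's quasi-likelihood test and DESeq2 1.42.0 on the recovered reads, other scaling factors, filters and pseudocounts, the replicate number as a block, each sample left out, and other limits of span and mean. Limma without the trend, the limit on the canonical transcript and those on overlapping genes were added after the data were seen. The script was tested on simulated data.

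Depth was 22621338 to 26130882 reads on genes, so that a gene at the limit of 50 adjusted reads is measured with a wide counting error. The members, gene lists and comparisons were chosen with earlier results of these data known. Named genes were the 10 largest falls and 10 largest rises that passed the test with groups that do not overlap, the 5 highest means, the 5 longest spans, the 2 genes on each side of each limit, and the 3 smallest p-values in each list, or in each direction for the elongation factors. Some results that the rule covers are not reported here. Other genes were named for their family, list or overlap after their values were seen. Canonical transcripts came from GENCODE v44 and gene spans were compared with RefSeq, which held 144 of the 145 symbols.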

Additional observations from a re-analysis of the deposited data

How the results depend on the processing

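The number of long genes called lower was 56 to 63 and called higher 14 to 23 over all alternative fits of the 145 genes. The same call was made in every one of 14 alternative fits for 55 of the 61 lower genes and 12 of the 20 higher genes, and none of these 81 changed sign. The median log2 fold change was -0.1048 with edgeR's quasi-likelihood test, -0.0986 with DESeq2, -0.1083 with RLE factors and -0.0777 with upper-quartile factors, under which the median of all genes was 0.0334. With each sample left out it was -0.146 to -0.0982, and the difference from the other genes -0.1394 to -0.0861 (-0.1075 with all samples). The number of genes called lower was then 56 to 63 and called higher 16 to 21. With limits of 300 kb and 1000 kb on the span, 163 and 6 genes were lower and 70 and 2 higher, of 416 and 17, with medians of -0.1231 and -0.1076. With a mean of 20 the median was -0.1072, and with a mean of 200 it was -0.1552, with a difference of -0.1485. With a canonical transcript of 500 kb or more, 12 of 110 genes were higher, and without overlapping genes 11 of 98 were higher, with a median of -0.1344 and a difference of -0.1257. The cause of these shifts was not tested beyond the change in samples or genes itself.

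No pairing of the samples by replicate number was seen: the correlations of same-numbered samples' deviations were -0.018, -0.017 and 0.003. These values cannot show whether same-numbered samples were handled together. With the replicate block, 60 genes were lower and 20 higher. The median standard error was 0.15 for the 43 long genes with a mean of 50 to 200 and 0.05 for the 37 with a mean of 1000 or more.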

Other observations

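A further 201 genes of 500 kb or more had a mean under 50 adjusted reads, 76 of them under 1 and 15 at 0 in all samples. PPARGC1A, a coactivator of mitochondrial gene expression that spans 680.9 kb, lay just under the limit, with 16.9, 14.1 and 25.7 adjusted reads in DMSO and 73.0, 84.2 and 75.2 in pladienolide B, and its log2 fold change was 2.02. It was named because it lies next to the limit, and no test is given for it.

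By chromosome, 5 of the 7 long genes on chromosome 12 and 5 of the 8 on chromosome 8 fell, while 2 of the 8 on chromosome 4 and 1 of the 8 on chromosome 13 did so. Among all long genes 42.1% fell. Only some of the 22 chromosomes are named here, each with few long genes, so these counts show no pattern by chromosome. The share of other genes on these chromosomes was not counted. No test of the chromosomes was made.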
